A study of Homo sapiens with 4 samples.

Results

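The genes that encode collagen chains were measured in U87 cells. They were taken as the protein-coding genes of GENCODE v29 whose symbol reads COL, a number, A and a number, and the values of their transcripts were summed per gene. This rule named 44 genes, of which 37 had a row, in 168 transcripts, and 28 had a mean of at least 10 over the 4 libraries. Those 28 were tested among 16535 genes. By class, 7 of 11 fibrillar genes, 6 of 6 basement membrane type IV genes, 3 of 5 type VI genes and 12 of 22 other genes were tested. COL2A1, COL11A2, COL6A5, COL9A1, COL20A1, COL18A1 and COL26A1 were not analysed here. COL3A1, COL24A1, COL6A6, COL9A3, COL19A1, COL8A2, COL10A1, COL23A1 and COL25A1 had rows with means of 2.72 to 9.46, below that limit, while the lowest mean tested was 10.7, for COL4A1.

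U87 is an established human glioblastoma line. In 2 libraries the cells had received 50 nM of tRF-3009a mimic, which copies a short RNA cut from the 3' part of a tRNA. In the 2 control libraries they had received 50 nM of single-stranded siGL2, whose target is firefly luciferase. All cells were transfected with lipofectamine 2000 and collected after 48 h, so the control cells carried a foreign oligonucleotide too, and untransfected cells were not analysed here. Polyadenylated RNA was sequenced as pairs with a directional kit, and 28860788 to 33848402 whole reads per library were recovered from the deposited values. The labels number the libraries 1 and 2 within each group without saying whether they came from separate cultures or what a number stands for, so p-values measure only the spread between these libraries, which may be technical.

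A collagen is built of 3 chains wound around each other, and its type is set by which chains meet. Fibrillar collagens form the cables of connective tissue, type IV forms the sheet of basement membranes, type VI forms beaded filaments near the cell surface, and other classes decorate fibrils, span the membrane or anchor epithelium. In the normal brain collagen is found mostly in vessel walls and meninges, and glioblastoma tissue and cultured glioma lines are known to make several types.

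The cells were first checked against markers. VIM, CD44, NES, CHI3L1 and ANXA1, markers of mesenchymal glioma cells, summed to 206285 to 382411 in normalized value per library. VIM held most of this sum, with 121239 to 276546. ANXA1 had 61901 to 67954, CD44 17935 to 41466, CHI3L1 1328 to 1609 and NES 185 to 911. GFAP, the intermediate filament of astrocytes, stood at 12.5 to 29.7, and AQP4 and S100B had no row. SLC1A3, a glutamate transporter of astrocytes, had 942 and 210 in the mimic libraries and 1047 and 335 in the control libraries, and ALDH1L1 had 4.49 and 33.4 in the mimic libraries and 2.08 and 34.7 in the control libraries, so that the 5 astrocyte markers summed to 263 to 1062. The 8 markers of fibroblasts and pericytes summed to 2418 to 3772, and of these THY1 had a mean under 10. The others ran from FAP, at 934 to 2425, and ACTA2, at 635 to 859, down to PDGFRA, at 21.3 to 61.1. The 5 endothelial markers summed to 227 to 543, and of these CDH5 had a mean under 10. The others ran from KDR, at 183 to 351, down to VWF, at 3.82 to 17.1. The lists hold different genes, so their sums do not rank cell types. The library number divided the 4 libraries more than the treatment did. The mimic and control groups differed at 0.00% of the 16535 genes tested. The number 2 and number 1 libraries, taken over both groups, differed at 50.2%. These shares are from fits with 1 factor, so in the mimic test the number difference counted as spread within the groups. With the other factor added, limma called 117 of all genes for the mimic and 8891 for the number. The labels do not say that a number pairs the libraries. Both comparisons are therefore given for the collagen genes. In bulk RNA, fewer cells that express a gene and less RNA of it per cell cannot be told apart.

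Type VI chains made up most of the collagen RNA. Collagen genes took 0.402% to 0.486% of each library's values. Divided by transcript length, type VI chains held 73.7% and 78.8% of the collagen value per kb in mimic 1 and mimic 2, and 74.4% and 80.0% in control 1 and control 2. Fibrillar chains held 15.9% and 10.8% in the mimic libraries and 15.4% and 10.8% in the control libraries. Type IV chains held 2.98% and 1.44% in the mimic libraries and 2.61% and 1.21% in the control libraries, and the other chains 7.50% and 8.96% in the mimic libraries and 7.61% and 7.99% in the control libraries. The type IV and fibrillar shares were lower in both number 2 libraries than in both number 1 libraries, and the type VI share was higher. Of the type IV value per kb, COL4A2 held 323 of 701 in mimic 1 and 343 of 724 in control 1. It held 89.1 of 332 in mimic 2 and 46.2 of 287 in control 2. Protein-coding transcripts made up 24.6% of the COL4A2 value, and over them alone the gene was not lower in number 2 (log2 difference 0.52, not called).

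**Figure D1:**
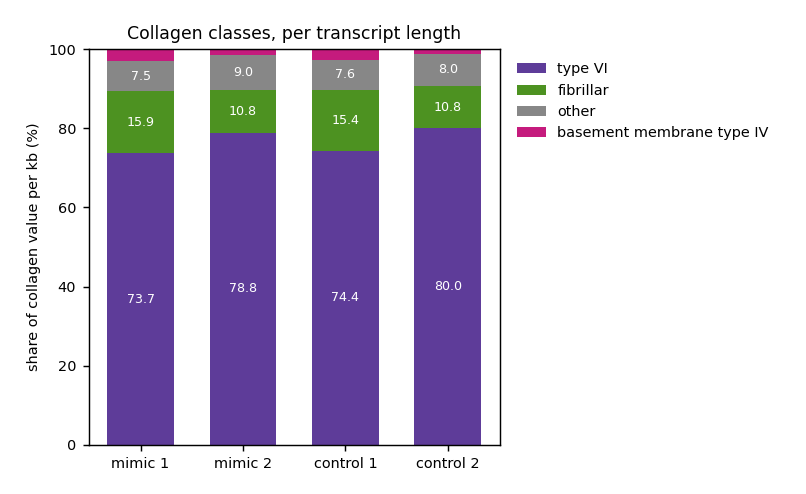
Stacked bars show the share (%) of the collagen value per kb that each class held in each of the 4 libraries. Type VI fills 73.7% to 80.0% of every bar, and the fibrillar share is 10.8% in both number 2 libraries against 15.9% and 15.4% in the number 1 libraries.

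Per kb, the order of the leading genes was COL6A2 (8068 ± 1201), COL6A3 (6247 ± 470), COL6A1 (4465 ± 1057) and COL1A2 (1583 ± 702) (mean ± SD, n = 4 libraries). Every library had this order, but the ranges of COL6A2, COL6A3 and COL6A1 over the 4 libraries overlapped between neighbours. COL1A2 lay below the 3 type VI genes, and above the genes that followed, without overlap. COL7A1 (640 ± 79.4), COL5A1 (629 ± 56.7), COL1A1 (622 ± 166) and COL16A1 (544 ± 101) followed, with overlapping ranges. COL5A2 had 299 ± 22.9 per kb and COL13A1 212 ± 132. At the low end, COL4A4, COL4A1 and COL4A3, with 2.40 ± 1.28, 2.53 ± 1.87 and 1.38 ± 0.775 per kb, rested on 5 to 36 reads per library. COL3A1, the partner of type I in most connective tissue fibrils, was below the limit for testing, at 8.09 and 0 in the mimic libraries and 6.23 and 4.48 in the control libraries.

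**Figure D2:**
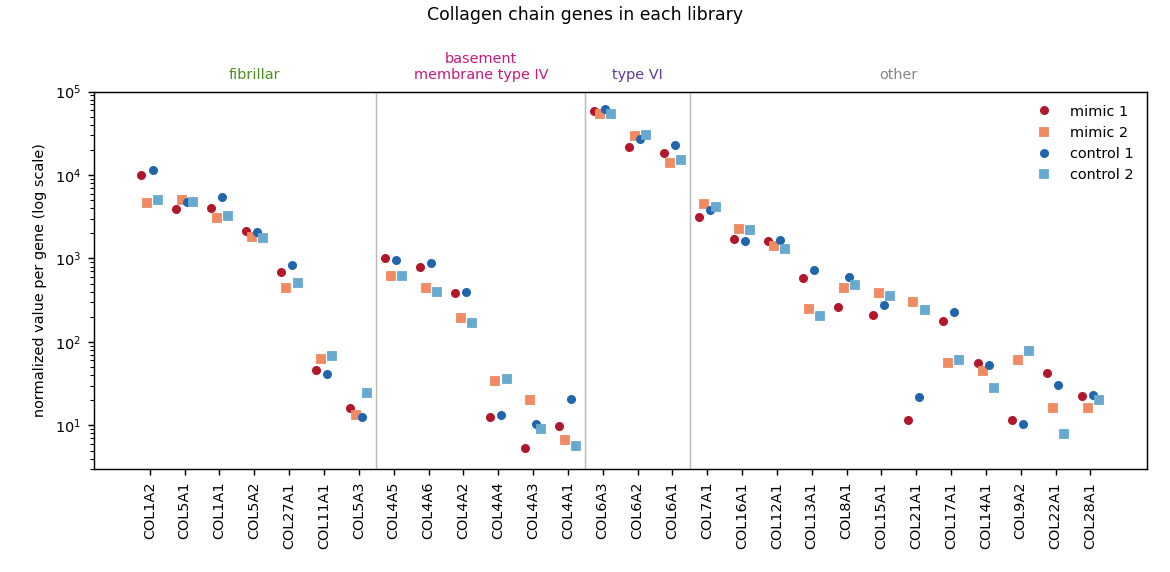
Points give the normalized value of each of the 28 tested collagen genes in each library on a log scale, grouped by class (circles number 1, squares number 2). COL6A3 is highest in each library, between 53185 and 62095, and COL21A1 lies at 299 and 244 in the number 2 libraries against 11.7 and 21.8 in number 1.

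The study set mimic against control to find RNAs that the fragment changes. No collagen chain gene passed the test, which took no account of the library number, and no other gene did either. COL8A1, which encodes a short chain that forms networks around vessels, lay lower in both mimic libraries than in both controls. The 3 type VI genes lay slightly lower with the mimic within both numbers. COL22A1 and COL14A1, fibril-associated chains, lay higher within both numbers at low values.

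In counts, 0 of 28 collagen genes were called (limma on log2(value + 1), adjusted p under 0.05), against 0.00% of all genes, and the smallest adjusted p was 1.00. EdgeR and DESeq2 on recovered reads also called 0 genes. At an unadjusted p under 0.05, limma had 26 of all genes (0.157%), edgeR 35 (0.212%) and DESeq2 23 (0.139%), and 0 of the limma genes were collagen genes. Of the 28, 18 lay below 0 and 10 above, against 8888 below and 7647 above of the 16535 genes tested. Their median log2 difference was -0.08, against -0.01 over all genes. Within both numbers 10 were lower and 5 higher, shares to be read against 27.7% and 22.3% of all genes. The median of the 28 was -0.17 within number 1 and 0.02 within number 2.

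COL8A1 had normalized values of 262 and 438 in mimic 1 and mimic 2, and 594 and 485 in control 1 and control 2. The groups did not overlap. Of the 28 genes, 1 was lower and 0 were higher without overlap, against 6.21% and 6.18% of all genes, together 12.4%, and none differed over 2-fold, against 2.06%. The log2 difference of COL8A1 was -0.66 ± 0.36 (SE, n = 2 libraries per group, limma adjusted p 1.00). It was -1.18 within number 1 and -0.15 within number 2. Its standard error takes in the difference between numbers. With the number as a second factor COL8A1 was called lower in limma (adjusted p 0.00176) and edgeR (adjusted p 0.00395), but not in DESeq2. Those fits called 117, 91 and 5 of all genes, and the edgeR and DESeq2 ones were chosen after seeing the data. The labels do not say that a number pairs the libraries. The transcript COL8A1-202, which ends earlier than COL8A1-201 with the same coding length, was chosen after its values were seen. It was listed at 0 in mimic 1, with 103 in mimic 2, 83.1 in control 1 and 207 in control 2. COL22A1 had 42.2 and 16.2 in the mimic libraries and 30.1 and 7.84 in the control libraries, a log2 difference of 0.72 ± 0.88. COL14A1 had 56.6 and 44.9 in the mimic libraries and 53.0 and 28.0 in the control libraries, a log2 difference of 0.38 ± 0.49. For both, the values of the groups overlapped, and 7 to 63 reads per library lay behind the difference. It was smaller than its standard error, which takes in the difference between numbers.

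The type VI chains were described one by one because they carry most of the RNA. COL6A3, which encodes the long chain of the beaded filaments, lies at chr2:237324003-237414375 (hg38, minus strand) and had 57648 and 53185 in the mimic libraries and 62095 and 54293 in the control libraries. COL6A2, at chr21:46098097-46132849 on the plus strand, had 21808 and 29357 in the mimic libraries and 26687 and 30263 in the control libraries. COL6A1, its neighbour upstream at chr21:45981737-46005050 on the same strand, had 18405 and 13837 in the mimic libraries and 22763 and 15261 in the control libraries. Each was lower with the mimic within both numbers, and in each the groups overlapped. The log2 differences were -0.07 ± 0.21 for COL6A3, -0.17 ± 0.25 for COL6A2 and -0.22 ± 0.30 for COL6A1, each within its standard error. That error is from the fit without the number, so it takes in the difference between numbers. Within number 1 and number 2 the differences were -0.11 and -0.03 for COL6A3 and -0.29 and -0.04 for COL6A2. They were -0.31 and -0.14 for COL6A1. The summed value of the class differed by -0.12 on the log2 scale, that of fibrillar genes by -0.14, that of type IV genes by 0.03 and that of the other genes by -0.06. These sums were not tested.

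**Figure D3:**
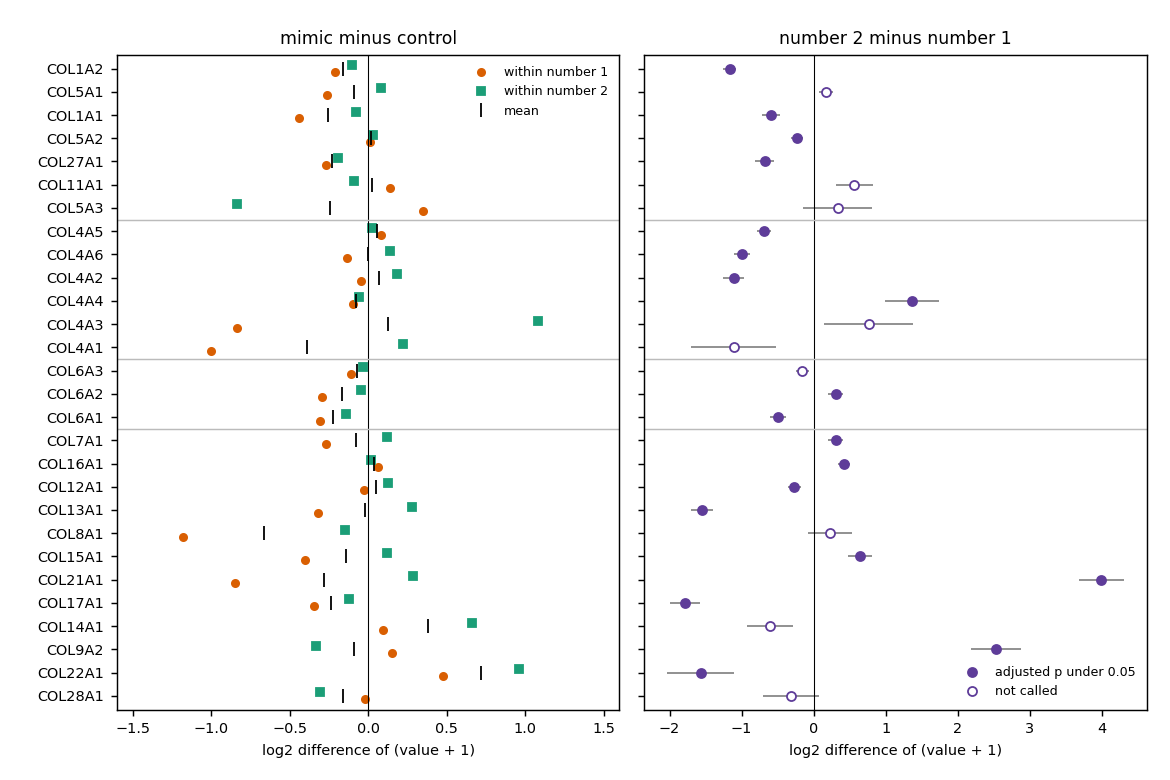
The left panel gives the log2 difference of (value + 1) between mimic and control for each tested collagen gene within number 1, within number 2 and as the mean. The right panel gives the difference between number 2 and number 1 with its standard error, filled where the limma adjusted p was under 0.05, which held for 19 of 28 genes.

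Between the library numbers many collagen genes differed, in both directions. COL1A2, COL1A1, COL13A1, COL17A1, COL4A5, COL4A6 and COL6A1 were lower in the number 2 libraries of both treatments, and COL21A1, COL9A2, COL4A4, COL15A1, COL16A1, COL7A1 and COL6A2 were higher. The largest difference among the 28 was that of COL21A1, 15.9-fold higher on the (value + 1) scale. Limma called 19 of 28 collagen genes (67.9%), 7 higher and 12 lower, against 50.2% of all genes, of which 26.0% were higher and 24.2% lower. DESeq2 called 16 collagen genes and 44.8% of all genes. The median log2 difference in limma was -0.25 for collagen genes and 0.01 for all genes. Over 2-fold differences were seen in 9 of 28, against 19.3% of all genes, and groups that did not overlap in 8 higher and 16 lower, against 38.5% and 37.2%.

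Growth and stress genes differed between the same libraries. MKI67, TOP2A, CCNB1, PCNA and MCM2, genes of dividing cells, were called lower in number 2 in 5 of 5 cases and summed to 10149 and 10984 in mimic 2 and control 2, against 44632 and 42396 in mimic 1 and control 1. ASNS, CHAC1, DDIT3, TRIB3 and ATF4, genes of the response to amino acid shortage, were called higher in 5 of 5 cases and summed to 53841 and 54031 under number 2, against 9681 and 10114 under number 1. Of the 5 mesenchymal glioma markers VIM, CD44 and NES were called lower, at -1.09, -1.05 and -2.27 on the log2 scale, with sums over the 5 of 206285 and 213805 in mimic 2 and control 2, against 359870 and 382411 in mimic 1 and control 1. Of the astrocyte markers SLC1A3 was called lower, at -1.90, and ALDH1L1 higher, at 3.09. Among the fibroblast and pericyte markers 2 were called higher and 4 lower, and their sum was 2418 and 2749 under number 2, against 3772 and 3706 under number 1. Of the endothelial markers 3 were called lower and 0 higher, with sums of 227 and 280 in mimic 2 and control 2, against 543 and 464 in mimic 1 and control 1. The 5 epithelial markers had 1 called each way, with sums of 522 and 518 in mimic 2 and control 2, against 301 and 373 in mimic 1 and control 1. The part of growth, stress and cell makeup in the collagen differences was not tested, and what a number stands for cannot be told apart from any of them.

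Among fibrillar genes the type I chains were lower in number 2. COL1A2, which encodes the second chain of type I collagen, lies at chr7:94394561-94431232 (hg38, plus strand). It had 4609 in mimic 2 and 4958 in control 2, against 9973 in mimic 1 and 11541 in control 1. The numbers did not overlap, and its log2 difference was -1.17 ± 0.09 (SE, n = 2 libraries per number, limma adjusted p 1.12e-05). COL1A1, the partner chain, had 3040 in mimic 2 and 3204 in control 2, against 4039 in mimic 1 and 5474 in control 1, and its log2 difference was -0.59 ± 0.13 (limma adjusted p 0.00444). Its difference was -0.41 within the mimic and -0.77 within the control libraries, where COL1A2 had -1.11 and -1.22.

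The type V chains, which join type I fibrils and limit their width, had smaller differences. COL5A1 had 5020 in mimic 2 and 4739 in control 2, against 3959 in mimic 1 and 4756 in control 1, a log2 difference of 0.17 ± 0.10 that limma did not call. COL5A2 had 1810 and 1772 under number 2, against 2107 and 2091 under number 1, a log2 difference of -0.23 ± 0.08 (limma adjusted p 0.0405). COL5A2 values were close within each number and did not overlap between numbers. COL27A1, a fibrillar chain of cartilage, differed by -0.68 ± 0.13 on the log2 scale (limma adjusted p 0.0021). COL11A1 and COL5A3 were not called, at 0.57 ± 0.26 and 0.34 ± 0.48. In all, 4 of 7 fibrillar genes (57.1%) were called, each lower, against 50.2% of all genes called and 24.2% called lower, and the median log2 difference of the 7 was -0.23. Their summed value differed by -0.59.

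Of the 6 type IV genes, COL4A5, COL4A6 and COL4A2 were called lower and COL4A4 higher, which is 66.7%, against 50.2% of all genes. COL4A5, a chain found in kidney and smooth muscle basement membranes, had 620 in mimic 2 and 610 in control 2, against 1021 in mimic 1 and 963 in control 1, a log2 difference of -0.69 ± 0.10 (limma adjusted p 0.000406). COL4A6, which forms trimers with COL4A5 chains in smooth muscle, had 440 and 399 under number 2, against 799 and 878 under number 1, a log2 difference of -1.00 ± 0.11 (limma adjusted p 0.000103). Its transcripts did not move together. COL4A6-201 had 253 and 77.3 in mimic 2 and control 2, against 582 and 774 in mimic 1 and control 1. COL4A6-202 had 99.4 and 255 in mimic 2 and control 2, against 113 and 19.7 in mimic 1 and control 1. Both transcripts were chosen after their values were seen and were not tested. COL4A5 and COL4A6 lie head to head on chromosome X with 346 bases between their annotated starts, COL4A5 on the plus strand and COL4A6 on the minus strand. As genes, both were lower in number 2 without overlap. Which COL4A6 transcripts start beside that stretch was not analysed here. The 250 bases before the COL4A5 start, which lie in that stretch, are printed because both genes of the pair were called lower. They are RefSeq sequence (GRCh38.p14, chrX:108439588-108439837, plus strand), and capitals mark the CCAAT box (CCAAT) on either strand.

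COL4A5: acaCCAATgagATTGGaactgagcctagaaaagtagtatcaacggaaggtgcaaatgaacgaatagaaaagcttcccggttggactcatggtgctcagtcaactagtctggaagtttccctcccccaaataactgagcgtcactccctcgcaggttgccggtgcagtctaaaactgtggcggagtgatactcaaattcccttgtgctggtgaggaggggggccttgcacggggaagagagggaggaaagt

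The CCAAT box was found once on each strand, close together. Windows with it, on either strand, made up 32.0% of the 35116 RefSeq windows of 250 bases before a start. Of the 44 windows of collagen genes, 12 had it. By gene, 8 of the 21 tested collagen genes with a window had it, but a gene can have more than 1 window. A match is a description of letters, not of a bound factor.

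COL4A2, which with COL4A1 forms the common type IV network, had 193 in mimic 2 and 169 in control 2, against 385 in mimic 1 and 397 in control 1, a log2 difference of -1.11 ± 0.14 (limma adjusted p 0.000213). Protein-coding transcripts held 24.6% of the gene's value, and over them alone the log2 difference was 0.52, the other direction, and was not called (limma adjusted p 0.118). The retained-intron transcript COL4A2-212, a single exon of 1663 bases, had 25.8 and 6.72 under number 2, against 132 and 172 under number 1. The full-length COL4A2-201 had 35.4 and 77.3 under number 2, against 20.7 and 14.5 under number 1. Both transcripts were chosen after their values were seen. COL4A1 overlaps COL4A2 on the other strand at its start, had 6.69 and 5.60 under number 2, against 9.89 and 20.8 under number 1, and was not called. COL4A4 had 34.4 and 35.9 under number 2, against 12.6 and 13.5 under number 1, a log2 difference of 1.36 ± 0.38 (limma adjusted p 0.0146), from 13 to 36 reads per library. COL4A3, its head-to-head neighbour with 111 bases between them, was not called, at 0.76 ± 0.62.

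The type VI chains went in different directions. COL6A1 was lower in number 2, at -0.49 ± 0.11 on the log2 scale (limma adjusted p 0.0046), COL6A2 was higher, at 0.31 ± 0.10 (limma adjusted p 0.0344), and COL6A3 was not called, at -0.15 ± 0.09 (limma adjusted p 0.163). In all 3 the numbers did not overlap. The summed value of the class differed by -0.09, and by -0.19 without mimic 1 and 0.0031 without control 1.

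Among fibril-associated chains, which sit on the surface of fibrils, COL21A1 and COL9A2 stood apart. COL21A1 had 299 in mimic 2 and 244 in control 2, against 11.7 in mimic 1 and 21.8 in control 1, which came from 314, 218, 13 and 21 reads. Its log2 difference was 3.99 ± 0.31 (limma adjusted p 1.15e-05). COL9A2, a chain of cartilage type IX collagen, had 61.1 and 77.3 under number 2, against 11.7 and 10.4 under number 1, a log2 difference of 2.54 ± 0.35 (limma adjusted p 0.000317). In both genes every number 2 library was above every number 1 library.

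The COL21A1 reads were assigned to transcripts with more than 1 start. COL21A1-203, a protein-coding transcript with 46.9% of the gene's mean value, was listed at 0 in both number 1 libraries and had 140 and 130 in mimic 2 and control 2. COL21A1-201, another protein-coding transcript, was listed at 13.5 in control 1, 61.9% of the gene there, and at 0 in mimic 1, mimic 2 and control 2. COL21A1-206, a processed transcript with 31.9%, had 105 and 62.8 under number 2, against 10.8 and 5.20 under number 1. All of these were chosen after their values were seen and were not tested. COL21A1-203 and COL21A1-206 were higher in each number 2 library. The 250 bases before the starts of these transcripts are printed because COL21A1 differed most among the 28 genes (RefSeq, GRCh38.p14, minus strand, written 5' to 3' along the gene). The first is chr6:56394129-56394378, before COL21A1-203, in which no motif searched was found and no capitals appear. A further RefSeq start of the gene, with no GENCODE v29 transcript start near it, is not printed. The next is chr6:56091663-56091912, before COL21A1-206, and its capitals mark a C/EBP-ATF element, the site known from genes of the amino acid response.

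COL21A1-203: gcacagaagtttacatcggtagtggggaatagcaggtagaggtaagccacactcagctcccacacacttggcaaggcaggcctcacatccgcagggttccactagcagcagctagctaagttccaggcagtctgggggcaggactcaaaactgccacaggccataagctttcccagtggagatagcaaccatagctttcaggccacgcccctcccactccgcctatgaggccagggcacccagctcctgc

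COL21A1-206: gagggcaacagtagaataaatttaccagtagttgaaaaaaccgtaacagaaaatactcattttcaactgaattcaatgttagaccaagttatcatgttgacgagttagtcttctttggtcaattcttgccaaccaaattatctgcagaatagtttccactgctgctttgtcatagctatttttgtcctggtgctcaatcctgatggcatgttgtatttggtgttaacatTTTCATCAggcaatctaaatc

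The element was searched as TGATGNAA on both strands. It was found in 3.14% of the 35116 windows and in 1 of the 44 windows of collagen genes. COL21A1, which has more than 1 window, was the 1 tested collagen gene of 21 with it. The other motifs searched on both strands were the TATA box (TATAAA), in 10.7% of windows, and the GC box (GGGCGG), in 42.6%. Of the 44 windows of collagen genes, 8 had the TATA box and 24 the GC box. By gene, 4 and 15 of the 21 tested collagen genes had them. COL21A1 was among those with the GC box, in the window that is not printed. Sequences matched 32 of the 44 collagen genes, in 44 windows. Whether any factor uses the element in these cells was not tested.

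The more abundant fibril-associated chains differed less. COL16A1, found around fibrils in skin and cartilage, had 2249 and 2219 under number 2, against 1704 and 1633 under number 1, a log2 difference of 0.42 ± 0.08 (limma adjusted p 0.0023). COL12A1, a long chain of tendon and scar, had 1427 and 1308 under number 2, against 1630 and 1661 under number 1, a log2 difference of -0.27 ± 0.09 (limma adjusted p 0.0322). COL22A1, a chain of muscle and tendon junctions, differed by -1.57 ± 0.46 (limma adjusted p 0.0194), and COL14A1 was not called, at -0.61 ± 0.32.

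Both tested transmembrane chains were lower in number 2. COL13A1, found at cell adhesions and neuromuscular junctions, had 247 in mimic 2 and 204 in control 2, against 591 in mimic 1 and 737 in control 1, a log2 difference of -1.55 ± 0.16 (limma adjusted p 4.77e-05). COL17A1, the transmembrane chain of hemidesmosomes, had 55.4 and 60.5 under number 2, against 180 and 229 under number 1, a log2 difference of -1.79 ± 0.21 (limma adjusted p 0.000118). Neither overlapped between numbers, and the summed value of the transmembrane class, which also holds 2 genes below the limit, differed by -1.59.

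COL7A1, the chain of the anchoring fibrils under epithelium, had 4477 and 4124 under number 2, against 3167 and 3816 under number 1, a log2 difference of 0.31 ± 0.10 (limma adjusted p 0.0327). COL15A1, a basement membrane chain whose end is released as a fragment, had 391 and 360 under number 2, against 209 and 276 under number 1, a log2 difference of 0.64 ± 0.16 (limma adjusted p 0.00977). COL8A1 was not called between numbers, at 0.22 ± 0.30, and its 4 values overlapped. COL28A1, with 16.2 and 20.2 in number 2 and 22.5 and 22.9 in number 1, was not called either. With mimic 2 or control 2 left out, 11 of the 28 genes were called, as were 5163 and 5430 of all genes. COL12A1, COL15A1, COL1A1, COL4A4, COL5A2, COL6A2 and COL7A1 were not called in either fit, nor COL6A1 without mimic 2 and COL22A1 without control 2. Without mimic 1, COL22A1, COL5A2, COL6A2 and COL7A1 were not called and COL6A3 was, and without control 1, COL12A1 was not called and COL5A1 and COL8A1 were. DESeq2 did not call COL22A1, COL4A4 and COL5A2, and over protein-coding transcripts alone COL22A1 was not called and COL11A1 was.

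The chains of 1 trimer were set side by side per kb of transcript. Type I collagen usually holds a pair of the chains encoded by COL1A1 and a single chain encoded by COL1A2, yet the ratio of COL1A1 to COL1A2 RNA was 0.323 and 0.515 in mimic 1 and mimic 2, and 0.362 and 0.489 in control 1 and control 2. It was below 1 in every library and higher in both number 2 libraries. Type VI filaments hold the 3 chains in equal numbers, and the ratio of COL6A1 to COL6A2 was 0.697 and 0.403 in the mimic libraries and 0.753 and 0.424 in the control libraries. The ratio of COL6A3 to COL6A2 was 0.987 and 0.662 in the mimic libraries and 0.870 and 0.649 in the control libraries. Both type VI ratios were lower in both number 2 libraries. COL5A1 to COL5A2, which pair in type V trimers, had a ratio of 2.12 ± 0.32 (mean ± SD, n = 4 libraries), and COL4A5 to COL4A6 one of 1.55 ± 0.20. The ratio of COL4A1 to COL4A2 was 0.016 ± 0.007 over all transcripts and 0.034 over protein-coding transcripts alone. These are ratios of RNA values, not of chains.

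**Figure D4:**
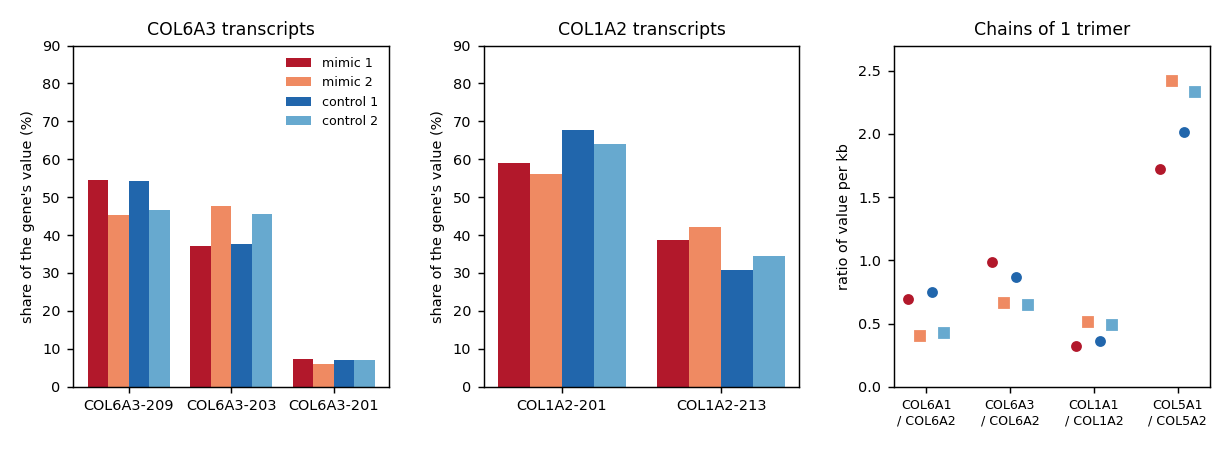
The first panels give the share (%) of the gene's value held by the leading transcripts of COL6A3 and COL1A2 in each library. The last panel gives the ratio of value per kb between chains of 1 trimer (circles number 1, squares number 2). COL6A1 to COL6A2 is at 0.403 and 0.424 in mimic 2 and control 2, against 0.697 and 0.753 in mimic 1 and control 1.

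Of the abundant genes, COL6A3, COL1A2 and COL7A1 had at least 2 transcripts above 10% of the gene. In COL6A3 the full-length COL6A3-201 held 5.88% to 7.37% of the value, and shorter forms held most of it. COL6A3-209 lacks coding exons 3, 4 and 6 of the full-length transcript, which have 618, 603 and 600 bases (chr2:237394587-237395204, chr2:237387582-237388184 and chr2:237378636-237379235, hg38), and COL6A3-203 lacks exon 3. COL6A3-209 held 54.6% and 45.4% in mimic 1 and mimic 2, and 54.3% and 46.7% in control 1 and control 2. COL6A3-203 held 37.1% and 47.7% in the mimic libraries and 37.7% and 45.4% in the control libraries. In both treatments number 2 had less of COL6A3-209 and more of COL6A3-203 than number 1, although per kb COL6A3-209 led in every library. Per kb it held 57.3% and 47.9% in the mimic libraries and 56.9% and 49.7% in the control libraries, and COL6A3-203 held 33.7% and 43.6% in the mimic libraries and 34.2% and 41.8% in the control libraries.

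In COL1A2 the transcript COL1A2-201 held 59.1% and 56.0% in the mimic libraries and 67.7% and 64.0% in the control libraries. COL1A2-213, which ends earlier and has a coding length of 4092 bases where COL1A2-201 has 4098, held 38.8% and 42.1% in the mimic libraries and 30.9% and 34.4% in the control libraries. The mimic and control libraries did not overlap in these shares, which were not tested. For 2 against 2 libraries the smallest two-sided exact permutation p is 0.333, and the share of all transcripts without overlap is not given here. In COL7A1 the retained-intron transcript COL7A1-210 held 25.1% and 14.9% in the mimic libraries and 14.8% and 14.1% in the control libraries, with mimic 1 apart from the other libraries. COL6A1-206, a processed transcript of 6 exons chosen after its values were seen, had 327 and 291 in the mimic libraries and 2376 and 858 in the control libraries. It held 1.78% to 10.4% of its gene. Its groups did not overlap, which was not tested, and here too the share of all transcripts without overlap is not given. The leading COL6A1-201 had 17363 and 12539 in mimic 1 and mimic 2, and 19496 and 13449 in control 1 and control 2, so its groups overlapped. How reads are divided among transcripts of 1 gene is an estimate, and its error was not analysed here.

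The genes that modify, fold, export, cut and bind collagen were counted from a list of 46, of which 44 were tested. Between mimic and control 0 of 44 were called (limma). Of the 44, 31 lay below 0 and 13 above, against 8888 below and 7647 above of the 16535 genes tested. Their median log2 difference was -0.11, against -0.01 over all genes. The 11 hydroxylases and their partners, which modify proline and lysine in the chains, all lay below 0, between -0.25 and -0.02. P4HB, a subunit of prolyl 4-hydroxylase, had 28884 and 27412 in the mimic libraries and 34007 and 29906 in the control libraries, and P4HA2, another subunit, had 5596 and 4826 in the mimic libraries and 6636 and 5501 in the control libraries. P4HB lay lower in both mimic libraries without overlap, P4HA2 overlapped, and they had log2 differences of -0.18 ± 0.20 and -0.22 ± 0.22. COLGALT2, a galactosyltransferase of collagen, had 51.2 and 40.1 in the mimic libraries and 23.9 and 33.6 in the controls (0.66 ± 0.43), without overlap. ITGA11, a subunit of a collagen-binding integrin, had 120 and 89.9 in the mimic libraries and 188 and 106 in the controls (-0.45 ± 0.43). Of the 44 genes, 1 was higher and 2 were lower without overlap, against 6.18% and 6.21% of all genes. The lower ones were P4HB and FKBP10.

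Between numbers 25 of the 44 were called (limma), 8 higher and 17 lower, which is 56.8%, against 50.2% of all genes. Of the 11 hydroxylases and partners 7 were lower and 0 higher (63.6%), against 24.2% of all genes lower and 26.0% higher. PLOD2, a lysyl hydroxylase, had 6191 and 6597 in mimic 2 and control 2, against 12667 and 12900 in mimic 1 and control 1, a log2 difference of -1.00 ± 0.08. P3H3, a prolyl 3-hydroxylase family member, differed by -1.26 ± 0.11 and P4HA1, a catalytic subunit of prolyl 4-hydroxylase, by -0.74 ± 0.08. SPARC, a secreted protein that binds fibrillar and type IV collagen, had 3960 and 4549 under number 2, against 10840 and 12322 under number 1, a log2 difference of -1.44 ± 0.10 (limma adjusted p 4.5e-06). For each of these genes the numbers did not overlap. FMOD, a small proteoglycan of fibrils, was listed at 0 in both number 1 libraries, with 44.9 and 30.3 in mimic 2 and control 2.

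Not all collagen helpers were lower. SERPINH1, the chaperone of procollagen in the endoplasmic reticulum, had 5687 and 5685 in mimic 2 and control 2, against 2123 and 2717 in mimic 1 and control 1, a log2 difference of 1.24 ± 0.11. COLGALT1, the main collagen galactosyltransferase, differed by 0.88 ± 0.09, MIA2, which helps load large cargo for export, by 1.47 ± 0.11, and DDR2, a receptor kinase for fibrillar collagen, by 1.17 ± 0.10. FKBP7, a prolyl isomerase, differed by -1.52 ± 0.15, ITGA2, a collagen receptor subunit, by -1.08 ± 0.10, PCOLCE2, an enhancer of propeptide removal, by -1.17 ± 0.13, and ADAMTS14, a protease that removes propeptides, by 1.32 ± 0.19. All of these were called by limma. SERPINH1, COLGALT1, DDR2, P4HA1, FKBP7, ITGA2, PCOLCE2, ADAMTS14 and FMOD were chosen after their values were seen.

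**Figure D5:**
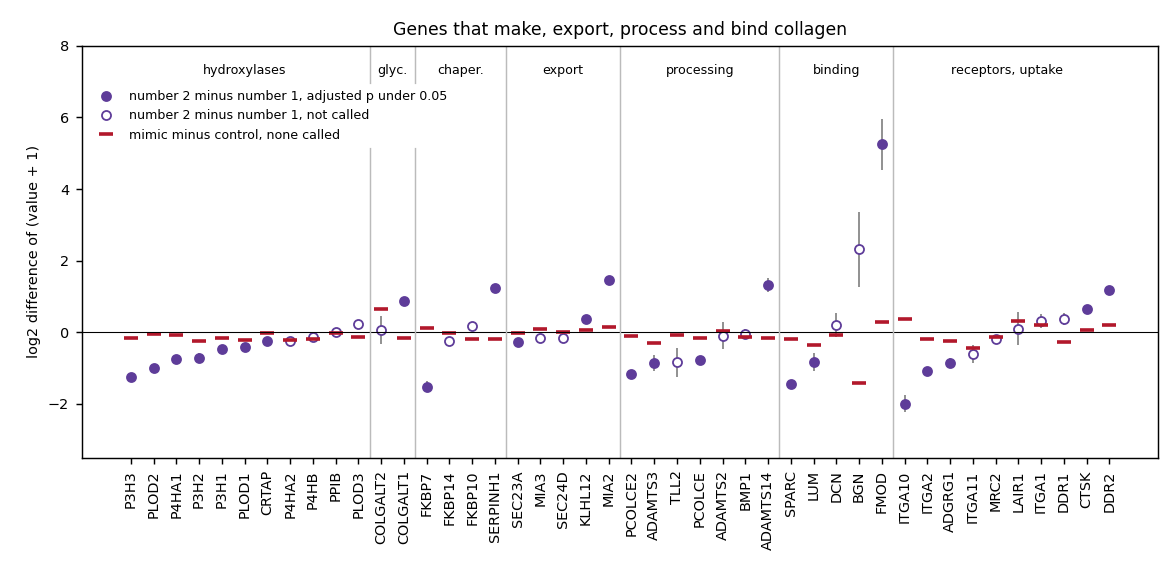
Points give the log2 difference of (value + 1) between number 2 and number 1 for each of the 44 tested genes of the collagen pathway, with the standard error, filled where called, and red dashes give the difference between mimic and control. The 44 genes hold 8 called higher and 17 called lower between numbers, and 0 called between mimic and control.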

How the data were processed

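RNA was measured in 4 libraries, 2 per treatment. The deposited values are a normalized signal for each Ensembl transcript, scaled by the authors between libraries. Per the submitters' processing notes the tools were kallisto and DESeq2 and the build was hg38. No version is stated, and the annotation release and strand setting are not given in the sources used here. Values were multiples of the worth of 1 read (95.6% to 99.7% of low values per library, tolerance 0.1), so reads could be recovered, 28860788 to 33848402 per library, and were used for edgeR and DESeq2. No sample column was left unused (0).

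Of 100809 transcripts, 90643 (89.9%) matched GENCODE v29 by identifier without version and were summed over 22031 genes. The rest held 3.25% to 3.56% of the values and were left out. The lowest row held 10 recovered reads in all, so RNAs with fewer reads are outside these data. The value per kb divides each transcript's value by its annotated length. Genes with a mean of at least 10 were tested with limma (intensity trend) on log2(value + 1), two-sided, with Benjamini-Hochberg adjustment at 0.05 over all genes. This scale understates the change of low genes. COL1A2 and COL4A3 overlap antisense genes with values (AC002074.1 and AC097662.1), and COL4A1 overlaps COL4A2, so their reads may be shared.

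The collagen classes, partner genes, markers, comparison of numbers and naming rule were chosen with earlier results of these data known. Values per library are given for collagen genes with a mean of at least 1000, those with the smallest p-values (3 for the mimic, 6 for the numbers) and the highest of each class, and for 4 partner genes per comparison. Other genes named beyond this were chosen after their values were seen. In genes with a mean of at least 1000, transcripts above 10% of the gene were described.

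Alternatives were pseudocounts of 0.5 and 10, no filter, a mean of at least 50, median scaling, edgeR, DESeq2, protein-coding transcripts alone, the replicate number or treatment as a second factor, and each library left out. Tables and figures were made in Python 3.11.15 (pandas 2.3.3, numpy 2.4.6, matplotlib 3.10.9, scipy 1.17.1). Fits were run in R 4.3.3 (DESeq2 1.42.0, edgeR 4.0.16, limma 3.58.1). Sequences are from RefSeq (GRCh38.p14).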

Additional observations from a re-analysis of the deposited data

How the results depend on the processing

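The 28 collagen genes and the 16535 genes tested gave 0 calls between mimic and control under each alternative without a second factor (other pseudocounts, filters and scaling, edgeR, DESeq2, protein-coding transcripts alone, and each library left out). Adding the replicate block gave 117 calls in limma, 91 in edgeR and 5 in DESeq2. Of the collagen genes the block gave 1 call in limma and 1 in edgeR, COL8A1 lower (adjusted p 0.00176 in limma and 0.00395 in edgeR), and 0 in DESeq2, while the COL8A1 adjusted p was 1.00 under each alternative without the block. The labels do not say that libraries with the same number are pairs. Their deviations from the group means correlated across genes (r = 0.75 over 16535 genes, the same for both numbers because each group holds 2 libraries). The fits with a second factor in edgeR and DESeq2 were chosen after seeing the data. Between numbers, the treatment as a second factor gave 18 collagen calls in limma, 19 in edgeR and 14 in DESeq2.

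Leaving out 1 library removes the balance of numbers, so the difference between numbers enters the mimic comparison. Between numbers, the genes called ranged from 5163 to 7942 and the collagen genes called from 11 to 20. The summed value of all collagen genes between mimic and control ranged from -0.23 to 0.0014, of fibrillar genes from -0.49 to 0.21, of type IV genes from -0.41 to 0.48 and of type VI genes from -0.20 to -0.040. Between numbers it ranged from -0.25 to -0.056 for all collagen genes, from -0.71 to -0.46 for fibrillar genes, from -0.88 to -0.78 for type IV genes and from -0.19 to 0.0031 for type VI genes. Between mimic and control the log2 difference ranged from -0.32 to 0.36 for COL11A1, from -0.12 to 0.22 for COL12A1, from -0.94 to 0.90 for COL13A1, from -0.069 to 0.83 for COL14A1, from -0.59 to 0.31 for COL15A1, from -0.18 to 0.26 for COL16A1, from -1.18 to 0.72 for COL17A1, from -0.64 to 0.13 for COL1A1 and from -0.77 to 0.45 for COL1A2. It ranged from -2.56 to 2.00 for COL21A1, from -0.19 to 1.63 for COL22A1, from -0.59 to 0.13 for COL27A1, from -0.39 to 0.066 for COL28A1, from -1.25 to 0.47 for COL4A1, from -0.54 to 0.68 for COL4A2, from -0.74 to 0.98 for COL4A3, from -0.77 to 0.62 for COL4A4 and from -0.30 to 0.41 for COL4A5. It ranged from -0.57 to 0.57 for COL4A6, from -0.26 to 0.080 for COL5A1, from -0.098 to 0.14 for COL5A2, from -0.71 to 0.22 for COL5A3, from -0.51 to 0.064 for COL6A1, from -0.38 to 0.047 for COL6A2, from -0.17 to 0.028 for COL6A3, from -0.32 to 0.17 for COL7A1 and from -1.48 to 1.30 for COL9A2. Without reversing, COL8A1 ranged from -1.03 to -0.29, ITGA11 from -0.85 to -0.038, P4HA2 from -0.35 to -0.082, P4HB from -0.27 to -0.088 and COLGALT2 from 0.42 to 0.90. Between numbers the log2 difference ranged from -0.080 to 0.75 for COL5A3 and from -0.37 to 0.81 for COL8A1.

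The direction between mimic and control also turned for COL21A1 in edgeR (0.23) and DESeq2 (0.22), for COL4A6 in edgeR (-0.040), DESeq2 (-0.039), protein-coding transcripts alone (-0.018) and edgeR with the block (-0.0028), and over protein-coding transcripts alone for COL28A1 (0.37) and COL9A2 (0.18). None of these was called. Between numbers COL4A2 turned to 0.52 over protein-coding transcripts alone. The fibrillar difference between numbers was -0.23 as a median of genes, the type IV sum was -0.73 over protein-coding transcripts alone, and the ratio of COL4A1 to COL4A2 was then 0.034. The cause was not tested. Low members rest on 5 to 36 reads per library, and at that depth small differences were not detectable.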
